A study of Mus musculus with 8 samples.

Results

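The Wnt ligands, receptors, antagonists and targets described here are the genes whose symbol matched a fixed pattern of Wnt pathway names (the Wnt, Fzd, Dkk, Sfrp, Lgr, Rspo, Dvl, Nkd and Tcf7 families and 21 genes named singly). The pattern took 61 of the 15540 genes of the authors' deposited comparison table, and the pattern itself uses no measured value. It matches 73 protein-coding genes of the mouse GENCODE M21 annotation. The other 12 (Dkk1, Dkk4, Rspo2, Rspo3, Rspo4, Sp5, Wnt1, Wnt2, Wnt7a, Wnt8a, Wnt8b and Wnt9b) were not analysed here.

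RNA came from tongue epithelium of C57BL/6 mice. The KrTB+DOX group (4 libraries) consisted of K14-rtTA;TRE-FLBmi-1 mice given doxycycline at 2 mg/mL in their water, and the KrTB group (4 libraries) of mice with the same pair of transgenes on plain water. The transactivator is under the keratin 14 promoter of basal keratinocytes and turns the Bmi-1 construct on when doxycycline is present. Because both groups carry the transgenes and a doxycycline group without them was not analysed here, effects of doxycycline and of the construct cannot be told apart. The sources used here do not give age, sex or length of treatment, and the series' design text calls the libraries of a group biological replicates.

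Wnt proteins are secreted lipid-modified ligands. In the canonical branch they bind a Frizzled receptor together with LRP5 or LRP6, which stops the APC and Axin complex from marking beta-catenin for destruction, and beta-catenin then activates target genes with TCF/LEF factors. A further branch, planar cell polarity, orients cells within a sheet through Frizzled, Vangl and Celsr proteins. In the mouse tongue, canonical Wnt signalling is known for its part in forming taste papillae and in renewing taste cells, where Lgr5 and Lgr6 mark progenitor cells.

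Promoter windows are shown first. In mammals, Polycomb complexes, to which Bmi1 belongs, are known to occupy promoters rich in CpG dinucleotides. Whether they occupy any of the promoters below was not tested. Of the 5 genes that passed the test described below and Axin2, a widely used readout of canonical signalling, 4 had a single window in the RefSeq promoter table (GRCm38.p6). Wnt10a and Vangl1, which also passed, had no window there. Each window runs 5' to 3' from 250 bases before to 50 bases after the start that RefSeq annotates, on the strand of the gene, and capitals mark every CG dinucleotide. The window of Fzd7 ends before the start that GENCODE M21 gives for that gene, whereas in the other printed windows the bases just after the RefSeq start occur in a GENCODE transcript of the gene.
Fzd4, chr7:89404116-89404415, plus strand: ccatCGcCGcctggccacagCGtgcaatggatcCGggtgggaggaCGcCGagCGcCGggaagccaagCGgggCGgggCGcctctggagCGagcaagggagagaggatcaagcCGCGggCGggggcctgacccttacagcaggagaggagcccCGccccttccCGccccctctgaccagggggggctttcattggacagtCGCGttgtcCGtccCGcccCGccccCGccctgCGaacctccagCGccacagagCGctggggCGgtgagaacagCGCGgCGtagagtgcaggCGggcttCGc
Fzd7, chr1:59481897-59482196, plus strand: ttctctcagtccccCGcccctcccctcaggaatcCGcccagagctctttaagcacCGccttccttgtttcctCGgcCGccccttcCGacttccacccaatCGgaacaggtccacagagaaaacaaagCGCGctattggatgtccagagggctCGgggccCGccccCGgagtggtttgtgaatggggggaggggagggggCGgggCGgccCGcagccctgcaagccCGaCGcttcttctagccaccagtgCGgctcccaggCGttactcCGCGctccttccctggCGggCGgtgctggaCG
Nkd2, chr13:73847582-73847881, minus strand: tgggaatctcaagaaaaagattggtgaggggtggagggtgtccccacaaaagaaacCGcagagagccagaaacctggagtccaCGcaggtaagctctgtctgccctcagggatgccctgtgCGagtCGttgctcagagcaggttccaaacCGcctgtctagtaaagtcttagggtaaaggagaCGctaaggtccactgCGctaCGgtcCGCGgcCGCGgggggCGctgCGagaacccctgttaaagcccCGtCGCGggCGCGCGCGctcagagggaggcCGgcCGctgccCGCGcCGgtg
Axin2, chr11:108920099-108920398, plus strand: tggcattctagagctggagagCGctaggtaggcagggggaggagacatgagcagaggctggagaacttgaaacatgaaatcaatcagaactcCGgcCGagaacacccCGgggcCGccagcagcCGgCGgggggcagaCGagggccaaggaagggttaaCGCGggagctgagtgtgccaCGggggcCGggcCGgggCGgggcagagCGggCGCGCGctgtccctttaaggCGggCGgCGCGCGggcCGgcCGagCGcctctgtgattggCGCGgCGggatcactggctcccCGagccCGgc

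The windows of Fzd4, Fzd7, Nkd2 and Axin2 held 32, 24, 26 and 31 CG dinucleotides, with GC contents of 72.7%, 66.7%, 63.0% and 70.0%. Of the 26 in Nkd2, 22 lay in the 3' 150 bases of the window, which hold the RefSeq start, against 17 of 32 in Fzd4, 15 of 24 in Fzd7 and 23 of 31 in Axin2. Windows were found for 40 of the 61 Wnt genes, 50 windows in all, with a median of 24 CG dinucleotides per window. The median was 7 over all 32851 RefSeq windows. Those cover 27025 gene symbols, not only measured genes, and a background matched to the Wnt genes was not analysed here. At least 20 CG dinucleotides occurred in 64% of the Wnt windows and in 26.5% of all windows. The printed windows lie at or above the median of the Wnt windows. Windows of Wnt genes that did not pass, such as Wnt9a (58) and Fzd9 (53), held more CG dinucleotides than any printed one. One form of the core letters bound by TCF/LEF factors, CTTTGA on either strand, occurred in 5 of the 50 Wnt windows (10%) and in 16% of all windows. Other forms were not searched. The median GC content was 67.33% in the Wnt windows and 52.67% in all windows, and its part in these shares was not tested. The windows with CTTTGA belonged to Wnt11, Fzd1, Lef1, Ror1 and Wnt5b, and none of the 4 printed windows held CTTTGA. A match or a count of CG dinucleotides describes letters only and is no evidence of binding.

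Log2 fold changes of the Wnt genes lay between -0.73 and 0.89, and their share of called genes was close to the background. At an adjusted p under 0.05 (limma, adjusted over all 15540 genes), 4 rose in KrTB+DOX, namely Nkd2, Wnt10a, Vangl1 and Fzd7, and 1 fell, Fzd4. These 5 of 61 make 8.2%, against 8.13% (1263) of all genes in the authors' deposited table, of which 3.82% were higher and 4.31% lower. At an unadjusted p under 0.05 the Wnt genes numbered 19, or 31.1%, against 25.2% of all genes. At that p, 12 of the 61 Wnt genes were higher and 7 of the 61 lower. Of all 15540 genes, 1905 (12.3%) were higher and 2018 (13%) lower. The median log2 fold change of KrTB+DOX over KrTB was 0.04 for the 61 Wnt genes and -0.01 for all genes. Of the Wnt genes 37 lay above 0 and 24 below, and of all 15540 genes 7588 and 7952. Tested against a 1.2-fold change, Nkd2 still passed but Wnt10a, Vangl1, Fzd7 and Fzd4 did not, and Wnt10a was also lost once the trend of fold change with GC content and length was removed (adjusted p = 0.0631, with a log2 fold change of 0.62 in place of 0.73). With limma's moderated t referred to 6 residual degrees of freedom, none of the 5 passed, and 1.05% of all genes did. The t itself still used limma's prior, so this is not an unmoderated test. In it, 15 of the 61 Wnt genes had an unadjusted p under 0.05, against 3353 of all 15540 genes.

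Nkd2 (ENSMUSG00000021567.15) lies on chromosome 13 from 73818534 to 73847631 on the minus strand of GRCm38, and Vangl1 (ENSMUSG00000027860.15) on chromosome 3 from 102153583 to 102204693, also on the minus strand. On the plus strand lie Wnt10a (ENSMUSG00000026167.14) on chromosome 1 from 74791516 to 74804179, Fzd7 (ENSMUSG00000041075.8) on the same chromosome from 59482424 to 59486955, and Fzd4 (ENSMUSG00000049791.4) on chromosome 7 from 89404355 to 89413134.

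**Figure D1:**
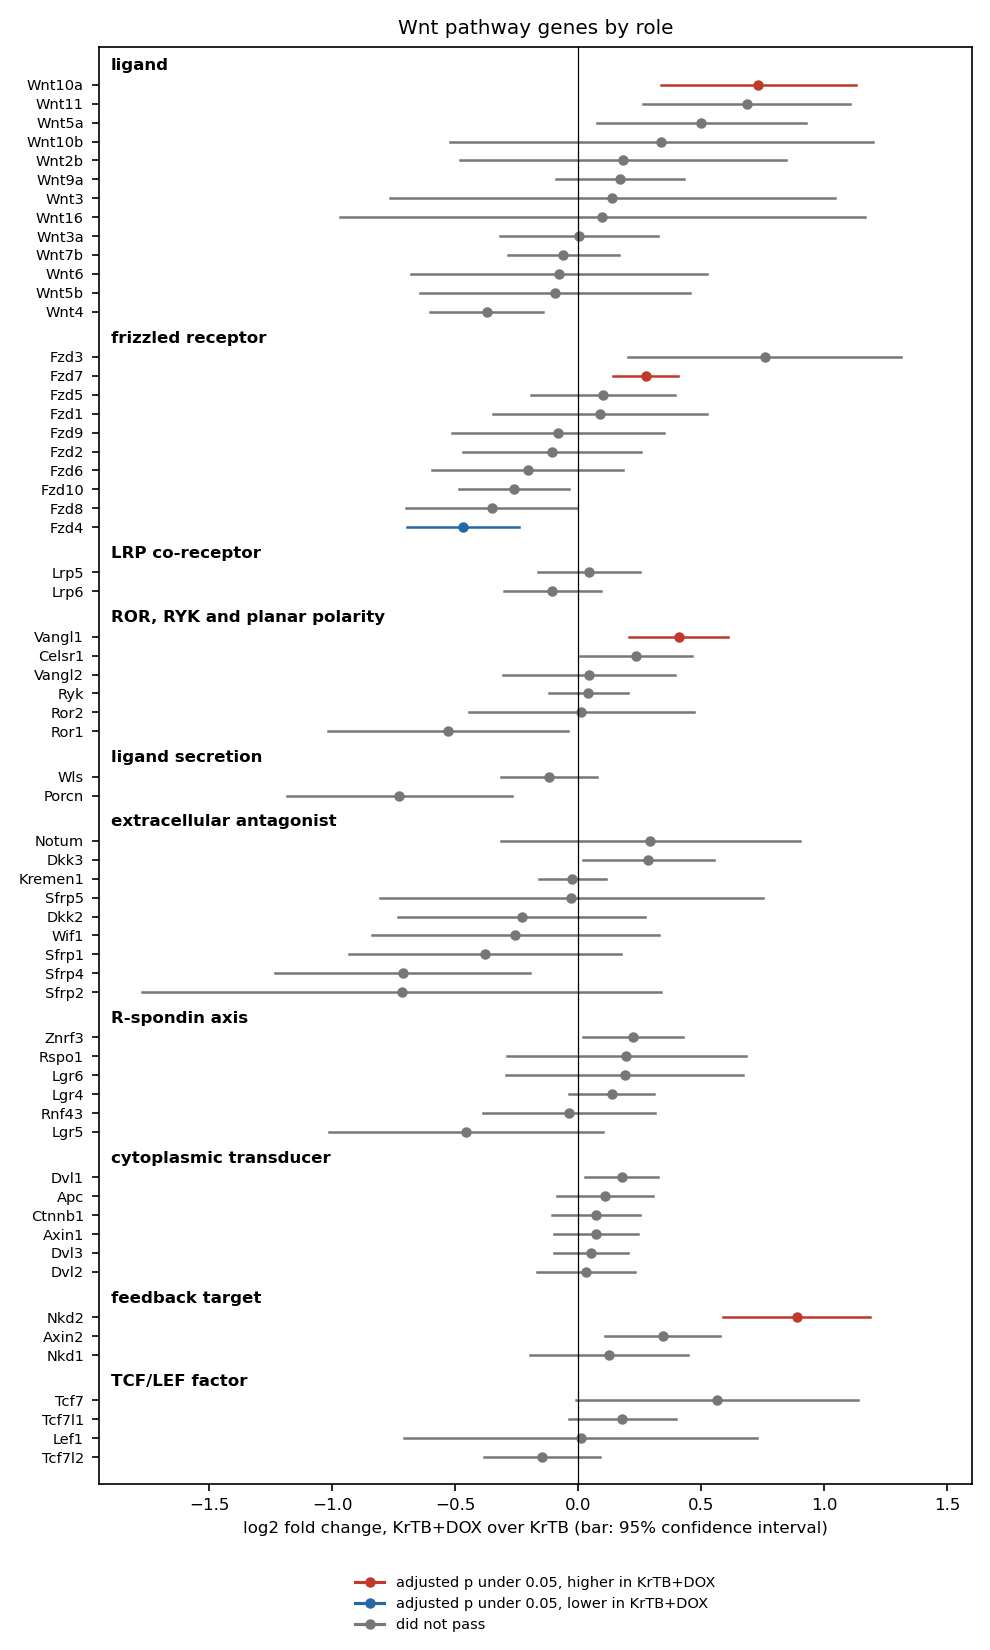
Log2 fold change of KrTB+DOX over KrTB for each of the 61 Wnt genes, grouped by role, with dots for the estimate and bars for the 95% confidence interval. Red genes (Nkd2, Wnt10a, Vangl1, Fzd7) were higher and the blue gene (Fzd4) lower in KrTB+DOX at an adjusted p under 0.05, and grey genes did not pass.

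The table holds limma's statistics for the group comparison and 0 columns of values per library, so values of single libraries, their depth and any overlap between groups cannot be shown. Each gene is instead given by its fold change, its standard error (SE, the fold change divided by the deposited t) and its mean over both groups in log2 CPM (CPM is a count scaled to the size of the library). The table names its groups only as control and perturbation, and its sign was read from Bmi1, whose log2 fold change of 5.42 (SE 0.10 and adjusted p = 4.5e-09) is 42.8-fold higher if positive values mean higher in KrTB+DOX. Keratinocyte markers matched the labelled tissue, with means of 10.9 log2 CPM for Krt5 and 13.9 for Krt4, per the authors' deposited table. Skeletal muscle RNA was present as well, with a mean of 13.6 log2 CPM for the myosin gene Myh4, per the authors' deposited table.

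Among the ligands, 1 of 13 rose and 0 fell by limma, and 4 had an unadjusted p under 0.05. Counts by role, here and below, are read against the shares of all genes. These are 3.82% higher and 4.31% lower by adjusted p, and 25.2% at an unadjusted p under 0.05. Wnt10a, a canonical ligand whose loss in people affects teeth, skin and tongue papillae, was 1.66-fold higher in KrTB+DOX per the authors' deposited table (a log2 fold change of 0.73, SE 0.18 and adjusted p = 0.0354, mean 4.21 log2 CPM). Its 95% interval ran from 0.33 to 1.13 on the log2 scale. The noncanonical ligand Wnt11 lay just outside the threshold per the authors' deposited table (a log2 fold change of 0.68, SE 0.19 and adjusted p = 0.0539). Wnt5a, the prototype of noncanonical ligands, stood at 0.50 (SE 0.19 and adjusted p = 0.136), per the authors' deposited table.

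Wnt4 had the highest level per transcript length of the ligands, at 5.16 log2 CPM per kilobase of merged exons, followed by Wnt7b at 4.50 and Wnt10a at 2.91. Of these, only Wnt10a passed. Wnt4, made by many epithelia, had a log2 fold change of -0.37 (SE 0.10 and adjusted p = 0.0546) and Wnt7b of -0.06 (SE 0.10 and adjusted p = 0.749), per the authors' deposited table. The interval of Wnt7b, from -0.28 to 0.16, leaves out a change of 1.5-fold either way. The canonical ligands Wnt3a (log2 fold change 0.00, SE 0.14), Wnt3 (0.14, SE 0.41) and Wnt10b (0.34, SE 0.38) did not pass, per the authors' deposited table, and the intervals of Wnt3 and Wnt10b still allow a 2-fold increase. The other ligands, Wnt2b, Wnt9a, Wnt16, Wnt6 and Wnt5b, lay between -0.09 and 0.18, per the authors' deposited table. Wnt10b was the lowest in level per length, at -2.56 log2 CPM per kilobase.

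**Figure D2:**
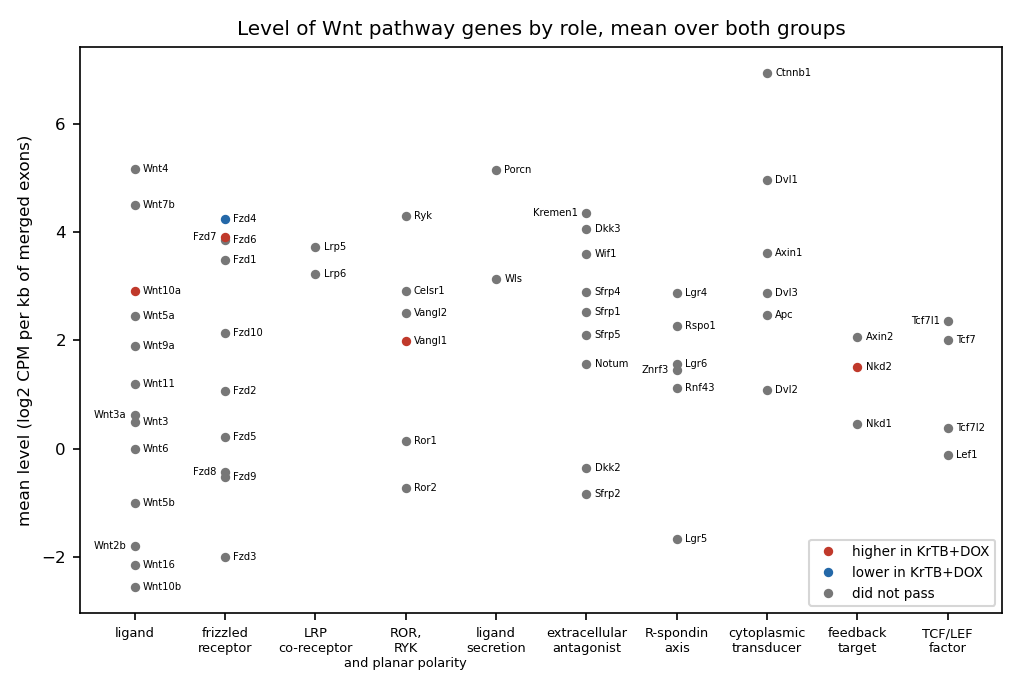
Mean level over both groups of the 61 Wnt genes in log2 CPM per kilobase of merged exons (vertical axis), by role (horizontal axis), with colours for the test result. Ctnnb1 is the highest at 6.94 and Wnt10b the lowest at -2.56, and the 5 coloured genes lie between 1.51 (Nkd2) and 4.23 (Fzd4).

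Both genes of ligand secretion lay below 0, as did 7952 of all 15540 genes. By limma 0 of 2 passed, with 1 at an unadjusted p under 0.05. Porcn, the acyltransferase that attaches the lipid to Wnt proteins, had a log2 fold change of -0.73 (SE 0.20 and adjusted p = 0.058) with a 95% interval of -1.19 to -0.27, per the authors' deposited table. That is 1.66-fold lower in KrTB+DOX as an estimate, but it did not pass. Wls, the carrier that brings lipid-bearing ligands to the cell surface, stood at -0.12 (SE 0.09 and adjusted p = 0.425), per the authors' deposited table. In level per length Porcn (5.14 log2 CPM per kilobase) was close to Wnt4.

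Of 10 Frizzled receptors 1 was higher and 1 lower by limma, where 3.82% of all genes were higher and 4.31% lower. At an unadjusted p under 0.05 were 5 of the 10, against 25.2% of all genes. Fzd7, known as a receptor of stem cells in the mouse intestine, was 1.21-fold higher in KrTB+DOX per the authors' deposited table (a log2 fold change of 0.27, SE 0.06 and adjusted p = 0.0253, 95% interval 0.14 to 0.41). Fzd4, which also serves as the receptor of Norrin in blood vessels, was 1.38-fold lower in KrTB+DOX per the authors' deposited table (a log2 fold change of -0.47, SE 0.10 and adjusted p = 0.0253, 95% interval -0.70 to -0.24). Both changes were small and were estimated closely, and their intervals do not overlap. A test of the difference between the genes needs values per library and was not tested.

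Fzd4 (4.23), Fzd7 (3.90), Fzd6 (3.85) and Fzd1 (3.49 log2 CPM per kilobase) were the receptors with the highest levels per length. Fzd6, best known for orienting hairs in the mouse, had a log2 fold change of -0.21 (SE 0.17) and Fzd1 of 0.09 (SE 0.19), per the authors' deposited table. Fzd3, the lowest receptor in level per length, had the largest estimate, 0.76, with a wide SE of 0.25 and an adjusted p of 0.0909, per the authors' deposited table. Fzd10 (log2 fold change -0.26, SE 0.10 and adjusted p = 0.137) and Fzd8 (-0.35, SE 0.16 and adjusted p = 0.19) lay below 0 without passing, per the authors' deposited table. Fzd5, Fzd9 and Fzd2 stood at 0.10, -0.08 and -0.11, per the authors' deposited table. The co-receptors Lrp5 (log2 fold change 0.04, 95% interval -0.16 to 0.25) and Lrp6 (-0.11, -0.30 to 0.09), which carry the canonical signal, did not pass, and their intervals leave out a 1.5-fold change, per the authors' deposited table.

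Of 6 genes for the alternative receptors and planar polarity, 1 rose and 0 fell, where 3.82% of all genes rose and 4.31% fell. Vangl1, a core membrane protein of planar polarity, was 1.33-fold higher in KrTB+DOX per the authors' deposited table (a log2 fold change of 0.41, SE 0.09 and adjusted p = 0.0261, 95% interval 0.21 to 0.61). Its paralog Vangl2 stood at 0.04 (SE 0.16 and adjusted p = 0.89) and the polarity cadherin Celsr1 at 0.24 (SE 0.10 and adjusted p = 0.185), per the authors' deposited table. The Wnt5a receptors Ror1 (log2 fold change -0.53, SE 0.22 and adjusted p = 0.164) and Ror2 (0.01, SE 0.20) did not pass, per the authors' deposited table. Ryk, the Wnt receptor with an inactive kinase domain and the highest level per length of these genes (4.29 log2 CPM per kilobase), stood at 0.04 (SE 0.07), per the authors' deposited table.

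Secreted and cell surface antagonists gave 0 calls among 9 by limma, with 2 at an unadjusted p under 0.05. Of the 9, 7 lay below 0, as did 7952 of all 15540 genes. The secreted Frizzled-related proteins, which bind Wnt ligands, held the lowest estimates. Sfrp2 had a log2 fold change of -0.72 (SE 0.47 and adjusted p = 0.375), Sfrp4 of -0.71 (SE 0.23 and adjusted p = 0.0894) and Sfrp1 of -0.38 (SE 0.25 and adjusted p = 0.371), per the authors' deposited table. Sfrp4 was the closest of the antagonists to the threshold. Sfrp5 stood at -0.03 (SE 0.35), and Wif1, another ligand-binding antagonist, at -0.26 (SE 0.26), per the authors' deposited table. Dkk2, which blocks LRP co-receptors, stood at -0.23 (SE 0.22), and Dkk3, a divergent member of that family, at 0.28 (SE 0.12 and adjusted p = 0.171), per the authors' deposited table. Notum, the enzyme that removes the lipid from Wnt proteins, stood at 0.29 (SE 0.27), per the authors' deposited table. Kremen1, the Dkk receptor, was the antagonist with the highest level per length (4.35 log2 CPM per kilobase), and its narrow interval of -0.16 to 0.11 leaves out a 1.5-fold change, per the authors' deposited table.

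Some markers of cell types also differed between the groups. Their counts are read against the 3.82% of all genes that were higher and the 4.31% that were lower. Of all 15540 genes 7588 lay above 0 and 7952 below. Of 16 fibroblast markers 0 rose, 7 fell and 15 lay below 0, with a median log2 fold change of -0.82, including decreases of the collagen genes Col1a2 (-1.31) and Col1a1 (-1.25), while Dcn stood at -0.15, per the authors' deposited table. Of 10 basal keratinocyte markers 3 rose (Itga3, Trp63 and Krt15), 0 fell and 9 lay above 0, with a median of 0.33. Of 10 endothelial markers 1 rose (Eng, 0.42), 1 fell (Cdh5, -0.38) and 6 lay above 0, with a median of 0.05, per the authors' deposited table. Among the other marker lists, 0 rose and 2 fell of 9 suprabasal keratinocyte genes, with 7 below 0. Of 12 skeletal muscle genes 0 rose, 1 fell and 11 lay below 0, with a median of -0.21. Of 11 immune cell genes 0 rose, 1 fell and 7 lay below 0. Of 10 taste bud genes 2 rose (the keratins Krt8 and Krt18), 1 fell (Prox1) and 7 lay below 0, per the authors' deposited table. By limma 0 of 3 salivary gland and 0 of 8 Schwann cell genes passed, with 1 and 0 at an unadjusted p under 0.05. The part of these cell types in the Wnt values was not tested, and levels of the markers in each group were not analysed here. In whole tissue RNA, fewer cells of a type and less RNA per cell cannot be told apart.

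**Figure D3:**
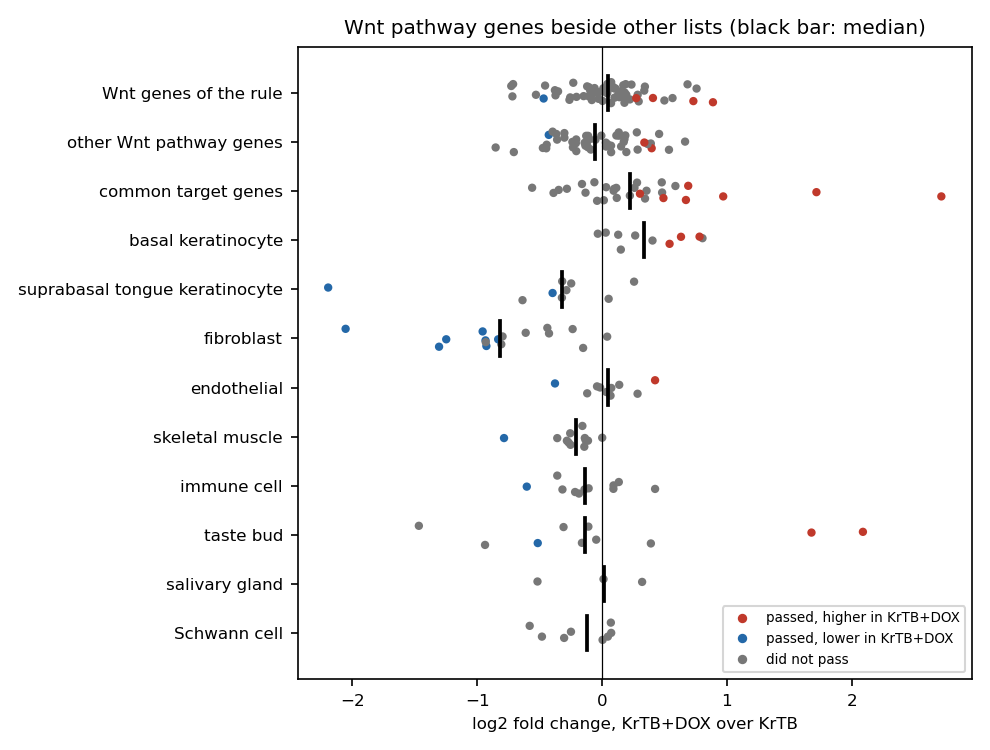
Log2 fold change of KrTB+DOX over KrTB (horizontal axis) for single genes (dots) of the Wnt set, other pathway and target lists and cell type markers (vertical axis), with black bars for medians. The median is 0.04 for the 61 Wnt genes, -0.82 for fibroblast markers and 0.33 for basal keratinocyte markers.

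The R-spondin branch strengthens Wnt signals by keeping the ubiquitin ligases Rnf43 and Znrf3 away from Frizzled receptors. None of its 6 measured genes passed by limma, and 1, Znrf3, had an unadjusted p under 0.05. Znrf3 had a log2 fold change of 0.22 (SE 0.09 and adjusted p = 0.159) and Rnf43 of -0.04 (SE 0.16), per the authors' deposited table. Among the R-spondin receptors, Lgr4 stood at 0.14 (SE 0.08), Lgr6 at 0.19 (SE 0.22) and Lgr5 at -0.46 (SE 0.25 and adjusted p = 0.283), per the authors' deposited table. Lgr5 had the lowest level per length of this branch (-1.66 log2 CPM per kilobase) and Lgr4 the highest (2.87). The ligand Rspo1 stood at 0.19 (SE 0.22), per the authors' deposited table.

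Inside the cell, the transducers had small fold changes. Ctnnb1, which encodes beta-catenin and also serves cell junctions, had a log2 fold change of 0.07 (SE 0.08 and adjusted p = 0.609), per the authors' deposited table, and its level of 6.94 log2 CPM per kilobase was above 98.1% of all genes with a length. All 6 transducers lay above 0, between 0.03 (Dvl2) and 0.18 (Dvl1), and 0 passed by limma. Of all 15540 genes 7588 lay above 0. Dvl1, a scaffold that Frizzled receptors recruit, was the only transducer with an unadjusted p under 0.05 (log2 fold change 0.18, SE 0.07 and adjusted p = 0.132), per the authors' deposited table. Apc (0.11), Axin1 (0.07), Dvl3 (0.05) and Dvl2 (0.03) had intervals that leave out a 1.5-fold change, per the authors' deposited table.

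The feedback targets held the largest change among the called Wnt genes. Nkd2, a Dvl-binding inhibitor of Wnt signalling, was 1.85-fold higher in KrTB+DOX per the authors' deposited table (a log2 fold change of 0.89, SE 0.13 and adjusted p = 0.00582, 95% interval 0.59 to 1.19). It was the only Wnt gene that also passed when tested against a 1.2-fold change, where 1.43% of all genes passed. Axin2, a scaffold whose transcription beta-catenin drives in many tissues, had a log2 fold change of 0.34 (SE 0.10 and adjusted p = 0.0739), per the authors' deposited table, which is 1.27-fold higher as an estimate but did not pass. Nkd1, the paralog of Nkd2 and a frequent canonical target, stood at 0.12 (SE 0.14 and adjusted p = 0.631), per the authors' deposited table. Among Wnt genes often used as readouts of canonical signalling, Axin2, Znrf3, Nkd1, Notum, Tcf7, Lef1, Rnf43 and Lgr5 did not pass. The 95% intervals of Axin2 and Znrf3 lay above 0, and those of Nkd1, Notum, Tcf7, Lef1, Rnf43 and Lgr5 included 0.

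Of the 4 TCF/LEF factors, which carry beta-catenin to DNA, 0 passed by limma and 0 had an unadjusted p under 0.05. Tcf7 had a log2 fold change of 0.56 (SE 0.26 and adjusted p = 0.205), Tcf7l1 of 0.18 (SE 0.10), Lef1 of 0.01 (SE 0.32) and Tcf7l2 of -0.15 (SE 0.11), per the authors' deposited table. The interval of Lef1, from -0.71 to 0.73, is too wide to leave out a 1.5-fold change. Tcf7l1 (2.36 log2 CPM per kilobase) and Tcf7 (2.01) had higher levels per length than Tcf7l2 (0.38) and Lef1 (-0.12).

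**Figure D4:**
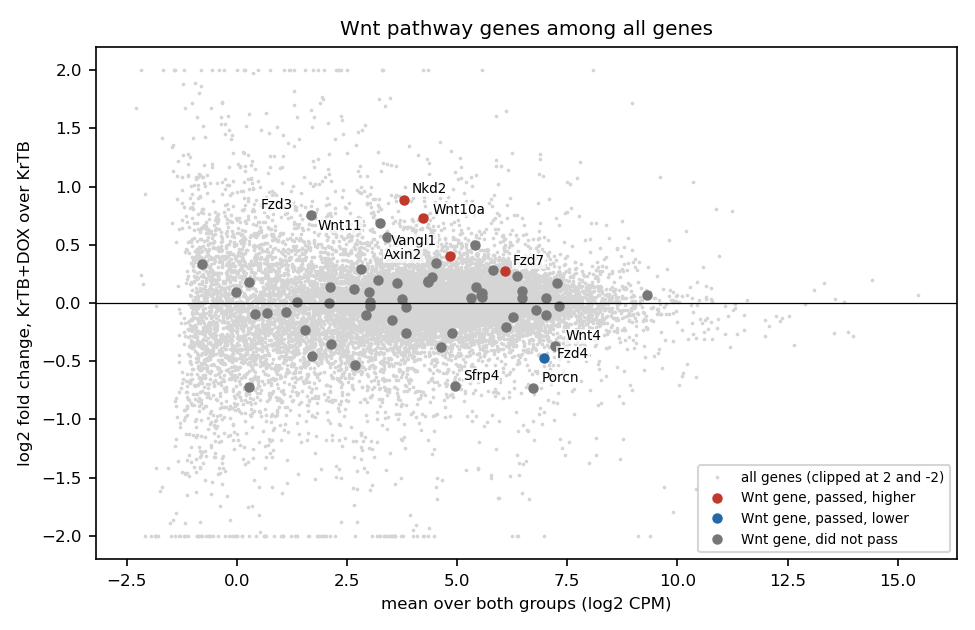
Log2 fold change of KrTB+DOX over KrTB (vertical axis) against the mean of both groups in log2 CPM (horizontal axis), for all 15540 genes (pale dots) and the 61 Wnt genes (large dots), with names for Wnt genes at an adjusted p under 0.10. Wnt genes lie between -0.73 (Porcn) and 0.89 (Nkd2).

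Standard errors were wider at low levels. The 11 Wnt genes under 2 log2 CPM had a median SE of 0.25, against 0.27 for all genes of that level. From 2 to 5 log2 CPM the median SE was 0.16 for 28 Wnt genes and 0.12 for all genes, and at 5 log2 CPM or more it was 0.09 for 22 Wnt genes and 0.08 for all genes. Calls by limma numbered 0 of 11, 3 of 28 and 2 of 22 at these levels, where 6.52%, 8.94% and 8.28% of all genes passed. For 31 of the 61 Wnt genes (50.8%) the 95% interval lay within a 1.5-fold change either way, against 63.2% of all genes. For 48 (78.7%) it lay within a 2-fold change, against 84.7% of all genes. Over all levels the median SE was 0.16 for Wnt genes and 0.12 for all genes, so Wnt genes were measured less closely. The 13 genes whose interval reached past 2-fold were Nkd2, Wnt10a, Wnt11, Wnt10b, Wnt3, Wnt16, Fzd3, Tcf7, Sfrp4, Sfrp2, Lgr5, Ror1 and Porcn. Exons of 14 measured Wnt genes overlap exons on the opposite strand, among the called genes Vangl1 by 8 bases, and Axin2 by 209 of 5506 bases and Lef1 by 1208 of 8788 bases. The sources used here do not give the strand setting of the counting, so reads of such partners may be mixed.

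Other Wnt pathway genes, a list of regulators outside the pattern, gave a like picture. Of 49 measured, 2 rose and 1 fell, or 6.12%, against 8.13% of all genes, and the median log2 fold change was -0.05. Csnk1e, a kinase that acts on Dvl proteins (log2 fold change 0.40, SE 0.08 and adjusted p = 0.024), and the co-repressor Tle3 (0.34, SE 0.07 and adjusted p = 0.0235) rose, per the authors' deposited table. Btrc, the ubiquitin ligase subunit that recognises marked beta-catenin, fell by 0.43 (SE 0.09 and adjusted p = 0.0229), per the authors' deposited table. The metalloprotease Trabd2b (log2 fold change 0.66, adjusted p = 0.0513), which cleaves Wnt ligands, did not pass, per the authors' deposited table, though it did under some alternatives given below. The kinases Gsk3a (0.17), Gsk3b (-0.09) and Csnk1a1 (0.04), which mark beta-catenin, did not pass either, per the authors' deposited table.

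Genes often listed as targets of canonical signalling outside the pattern held more calls. Of 29 measured, 7 rose and 0 fell, or 24.1%, against 8.13% of all genes, with a median of 0.22. They were Sox9 (log2 fold change 2.72, SE 0.25), Fosl1 (1.72, SE 0.29), Ephb2 (0.97, SE 0.22), Vegfa (0.69, SE 0.09), Ccnd1 (0.67, SE 0.10), Id2 (0.49, SE 0.10) and Ppard (0.30, SE 0.07), per the authors' deposited table. Each of these genes is also known to answer to other pathways. Vegfa responds to low oxygen and Fosl1 to growth factor signalling. Myc (0.10, adjusted p = 0.582) and Cd44 (0.11, adjusted p = 0.645), further classic targets, did not pass, per the authors' deposited table. The list was chosen with earlier results of these data known, so its count is a description only.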

How the data were processed

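RNA-seq covered 8 libraries, 4 KrTB+DOX and 4 KrTB, grouped by the treatment label. Preparation was stranded and for mRNA, per the labels' protocols. Tools named by the submitters' processing notes, without roles or settings, are bcl2fastq 2.20 and cutadapt, then STAR 2.5.2b with HTSeq 0.11.2, on GRCm38. The authors' deposited table is limma output, per the file headers. Its fold change and mean (log2 CPM) are on the log2 scale, per the file headers and the values. The deposited t is a moderated score, and each deposited p-value has a Benjamini-Hochberg adjusted p-value that recomputation matched within 6.4e-15. The sources used here do not give limma's version, the design formula or the filter.

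Each SE is the fold change over t. Intervals of 95% use 9.76 degrees of freedom (6 residual and 3.76 prior if no covariate was fitted), recovered from t and p of 206 genes. Depth per library is unknown. Levels per length divide by merged GENCODE M21 exons. GC content and length were found for 99% of genes and all 61 Wnt genes. The alternatives were a 1.2-fold null, genes of at least 1 log2 CPM, centring, a GC and length trend, 6 degrees of freedom, and other thresholds. Python 3.11.15 with numpy 2.4.6, scipy 1.17.1 and pandas 2.3.3 was used, and the code was tested on simulated data.

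The Wnt genes and all lists were chosen with earlier results of these data known. Genes named by rule were Wnt genes past 0.05 adjusted or unadjusted, the highest of each role, those nearest the threshold, and called list genes. Other list genes were picked after their values were seen.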

Additional observations from a re-analysis of the deposited data

How the results depend on the processing

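Centring on the median of all genes or adjusting over genes of at least 1 log2 CPM left 5 Wnt genes called, and both kept the same 5 genes. Both called 4 other pathway genes, since Trabd2b came in, against 8.26% and 7.63% of all genes. With the GC and length trend removed 5 were called, of which 4 were the same, since Wnt10a dropped out (adjusted p = 0.0631, log2 fold change 0.62 in place of 0.73) and Wnt4 came in (0.0475, lower). Tested against a 1.2-fold change, 1 of 61 Wnt genes (Nkd2), 0 of 49 other pathway genes and 3 of 29 common target genes passed, against 1.43% of all genes. At an unadjusted p under 0.05 in that test were 7, 3 and 6 of these lists, against 1295 of all 15540 genes. With the deposited moderated t referred to 6 residual degrees of freedom, 0 Wnt genes, 0 other pathway genes and 3 target genes passed. Calls over all genes dropped to 1.05%. At an unadjusted p under 0.05 in that test were 15, 14 and 15, against 3353 of all 15540 genes. Nkd2 then had an adjusted p of 0.0507. Only the degrees of freedom changed, since the deposited t still used limma's prior, and limma's own test has the prior degrees of freedom. At an adjusted p under 0.10 the counts were 11, 12 and 13, against 15.1% of all genes. With at least 1.5-fold in addition to 0.05, 2 Wnt genes (Nkd2 and Wnt10a), 0 other pathway genes and 5 target genes remained, against 4.54% of all genes, with 2 other pathway genes at an unadjusted p under 0.05 and that fold. The GC and length trend removed gave 5 other pathway genes, since Trabd2b and Apc2 came in, against 7.87% of all genes.

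Centring and removal of the GC and length trend were the alternatives that move fold changes. With the trend removed, the 19 Wnt genes with an unadjusted p under 0.05 kept their direction. Centring took only the median of -0.0060 from each gene. The smallest of the 19 changes was 0.18 (Dvl1), so centring could not turn a direction. Bmi1 kept its call in every alternative run. No paired analysis was possible because the table holds no values per library and the labels give no pairing. For the same reason leaving out a library was not possible, and the weight of any single library in these values is unknown.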

Other observations

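Among 3 pairs of neighbouring Wnt genes with values, only that of Wnt10a held a called gene, where 8.13% of all genes were called. So few pairs cannot show whether neighbours share calls. Wnt10a and Wnt6, 6193 bases apart on chromosome 1 and on the same strand (GENCODE M21, GRCm38), had log2 fold changes of 0.73 (adjusted p = 0.0354) and -0.08 (adjusted p = 0.883), per the authors' deposited table. Wnt3a and Wnt9a, 16175 bases apart on chromosome 11, stood at 0.00 and 0.17 there. Kremen1 and Znrf3, 14765 bases apart on chromosome 11, stood at -0.02 (adjusted p = 0.839) and 0.22 (adjusted p = 0.159), per the authors' deposited table. The differences within pairs were not tested. Among all pairs of the 73 annotated genes less than 100000 bases apart, these are the 3 with a value for both genes.

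Paralogs of the called genes did not pass, apart from Fzd4 and Fzd7 themselves. Nkd2 (log2 fold change 0.89) has its paralog Nkd1 at 0.12, Vangl1 (0.41) has Vangl2 at 0.04, and Wnt10a (0.73) has Wnt10b at 0.34 in the authors' deposited table. The interval of Wnt10b, which starts at -0.52 and allows a 2-fold increase, includes the estimate of Wnt10a. That of Vangl2, from -0.31 to 0.39, ends below the estimate of Vangl1 but overlaps the interval of Vangl1, which starts at 0.21. Nkd1's interval, from -0.20 to 0.45, ends below the interval of Nkd2, which starts at 0.59. Among the other Frizzled genes, the interval of Fzd10, from -0.49 to -0.04, includes the estimate of Fzd4 (-0.47), and that of Fzd1, from -0.35 to 0.52, includes the estimate of Fzd7 (0.27), in the authors' deposited table. No difference between paralogs was tested.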
